A study of Mus musculus with 6 samples.

Results

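The unfolded protein response and the integrated stress response were examined through 35 genes, taken by symbol from the 19288 genes of the count table. All 35 were in the table and all 35 passed the filter on low counts, which 13632 genes passed. Of these, 17 encode chaperones, folding enzymes and degradation factors of the endoplasmic reticulum (ER), 5 encode stress sensors and transcription factors, and 13 are genes of the ATF4 type, among them enzymes of amino acid and one-carbon metabolism. RNA came from subcutaneous tumours of LLC1 cells, a line of mouse Lewis lung carcinoma, in hosts that were offspring of C57BL/6 females and beta-hCG transgenic FVB males. The labels name every host as transgenic for the beta subunit of human chorionic gonadotropin. They give neither the promoter of the transgene nor the age of the animals. There were 2 libraries from ovariectomized transgenic hosts given progesterone (progesterone tumours), 2 from ovariectomized transgenic hosts given vehicle (vehicle tumours), and 2 from transgenic hosts for which no ovariectomy or supplement is named (transgenic tumours). The supplement lasted 28 days, and the tumours were removed on day 30 of growth. Vehicle and transgenic tumours therefore differ by ovariectomy and by vehicle at once, and these 2 cannot be told apart.

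When unfolded proteins build up in the ER, the sensors ATF6, IRE1 (encoded by Ern1) and PERK (encoded by Eif2ak3) signal to the nucleus. ATF6 and spliced XBP1, the product of IRE1 activity, raise the transcription of ER chaperones and of the degradation machinery. PERK is one of several kinases that phosphorylate the translation factor eIF2, which lowers protein synthesis but favours translation of ATF4, a factor that drives amino acid synthesis and transport genes and the factor CHOP (encoded by Ddit3). Gene counts show neither the splicing of Xbp1 nor the cleavage of ATF6 nor the translation of Atf4, so only the output of these pathways at the level of RNA is described.

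The binding sequences of these factors are shown because the promoters of the ER genes and of the ATF4-type genes differ in them. RefSeq promoter windows of GRCm38.p6, which run from 250 bases before to 50 bases after a start site, were available for 32 of the 35 genes. The ER stress response element, CCAAT and CCACG with 9 bases of any kind between them, binds NF-Y and ATF6. It was found on either strand in 7 of these 32 genes, all 7 of them among the 15 ER genes with a window. Of all genes with such a window, 37 of 27025 held it (0.137%). Each match is printed on the strand on which the element reads, with 5 bases on each side and its fixed letters in capitals.
Calr, chr8:84847070-84847098, plus strand: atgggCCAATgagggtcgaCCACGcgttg
Canx, chr11:50325795-50325823, minus strand: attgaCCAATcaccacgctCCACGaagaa
Creld2, chr15:88819515-88819543, minus strand: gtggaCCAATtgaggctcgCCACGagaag
Dnajc3, chr14:118937822-118937850, plus strand: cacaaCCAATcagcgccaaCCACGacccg
Hsp90b1, chr10:86705528-86705556, plus strand: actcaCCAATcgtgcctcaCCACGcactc
Hsp90b1, chr10:86705633-86705661, minus strand: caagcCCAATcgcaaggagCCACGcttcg
Hspa5, chr2:34772020-34772048, plus strand: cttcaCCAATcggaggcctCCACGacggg
Pdia6, chr12:17266486-17266514, plus strand: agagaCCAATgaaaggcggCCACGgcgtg
The 8 elements lay between 212 and 47 bases before the start sites, and Hsp90b1 held 2 of them in opposite orientations. In the GENCODE annotation of GRCm38 the Hspa5 element falls in an exon of Hspa5, and the other 7 are intergenic.

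The composite C/EBP-ATF element TGATGNAAN, the site of ATF4 with its C/EBP partners, was found in 6 genes with a window, 5 of the 13 ATF4-type genes and the ER gene Herpud1. It occurred in 1215 of 27025 genes with a window (4.50%). The letters fixed in the element are again in capitals.
Asns, chr6:7693219-7693237, minus strand: ccacaTGATGaAActtccc
Chac1, chr2:119351043-119351061, minus strand: aggagTGATGcAAcggcag
Herpud1, chr8:94386311-94386329, minus strand: cgggcTGATGcAAcccgcc
Nupr1, chr7:126625568-126625586, plus strand: ctgtcTGATGcAAtctggc
Trib3, chr2:152344034-152344052, plus strand: ccggcTGATGtAAacctga
Vldlr, chr19:27216814-27216832, minus strand: agcgcTGATGcAActattg
By the RefSeq start sites, the Trib3 element covers bases 14 to 22, counted with the start base as 1. The others lie before the start site of the window that holds them. Vldlr had 2 such windows, and its element was in the one at chr19:27216770-27217069 only. It lies past the start of the other window's site, which is near the GENCODE start at 27216484. In the GENCODE annotation the elements of Asns, Nupr1 and Vldlr fall in exons of those genes. That of Herpud1 falls in an intron of Gm15890 on the other strand, and those of Chac1 and Trib3 between genes. GENCODE places Trib3 at chr2:152337422-152344032, so the RefSeq and GENCODE starts of this gene differ. They differ for other printed genes too, among them Hspa5 and Nupr1. GENCODE places Nupr1 at chr7:126623249-126630861 on the minus strand, and its RefSeq window lies inside that span, at chr7:126625421-126625720. The element TGACGTGG of XBP1 was in none of the 32 genes' windows and in those of 0.714% of all genes. No window held elements of both kinds. These matches describe letters in a window and not binding.

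The context of the elements is shown for 1 gene of each kind, with the element in capitals on the gene's own strand.
Creld2, chr15:88819496-88819645, plus strand: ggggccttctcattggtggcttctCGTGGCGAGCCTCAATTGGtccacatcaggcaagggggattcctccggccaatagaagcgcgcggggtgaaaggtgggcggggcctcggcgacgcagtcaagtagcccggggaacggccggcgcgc
Chac1, chr2:119351032-119351181, plus strand: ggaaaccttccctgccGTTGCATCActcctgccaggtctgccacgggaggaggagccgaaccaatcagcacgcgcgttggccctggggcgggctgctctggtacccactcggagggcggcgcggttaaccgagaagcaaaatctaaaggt
Both stretches run 5′ to 3′ towards the start site. That of Creld2 ends at the base before the start site, and that of Chac1 ends 61 bases before it.

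Total counts ran from 19526775 to 30083925 per library, the lowest and the highest both in vehicle tumours. Transgenic library 2 stood apart on the first principal component of all genes and progesterone library 2 on the second. The keratins Krt8 and Krt18 were present in all 6 libraries at 125 to 393 CPM (counts scaled to library size with TMM factors), while the epithelial gene Epcam did not exceed 0.222 CPM and the surfactant gene Sftpc 0.0370 CPM. In such whole-tumour RNA, fewer cells of a type and less RNA per cell cannot be told apart. The labels do not say that the libraries of a group came from separate animals, so the spread between them may be technical in part.

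Per kilobase of exon, the mean level over the 6 libraries was 279 CPM for Hsp90b1, which encodes the chaperone GRP94, and 234 CPM for the lectin chaperone calreticulin (Calr). On the same scale it was 208 CPM for Hspa5, which encodes BiP, the main Hsp70 chaperone of the ER. The protein disulfide isomerases Pdia3 and Pdia6 had 202 and 172 CPM per kilobase. At the other end were Sel1l, part of the degradation complex, at 13.4 and the degradation factor gene Herpud1 at 18.0 CPM per kilobase. Among ATF4-type genes the level per kilobase ran from 0.551 CPM for Vldlr, a lipoprotein receptor gene, to 68.4 CPM for Phgdh, which encodes the first enzyme of serine synthesis. The 17 ER genes together made up 0.624% and 0.565% of TMM-scaled counts in the progesterone tumours, 0.540% and 0.689% in the vehicle tumours, and 0.646% and 0.593% in the transgenic tumours. The lowest and the highest share were thus both in vehicle tumours.

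**Figure D1:**
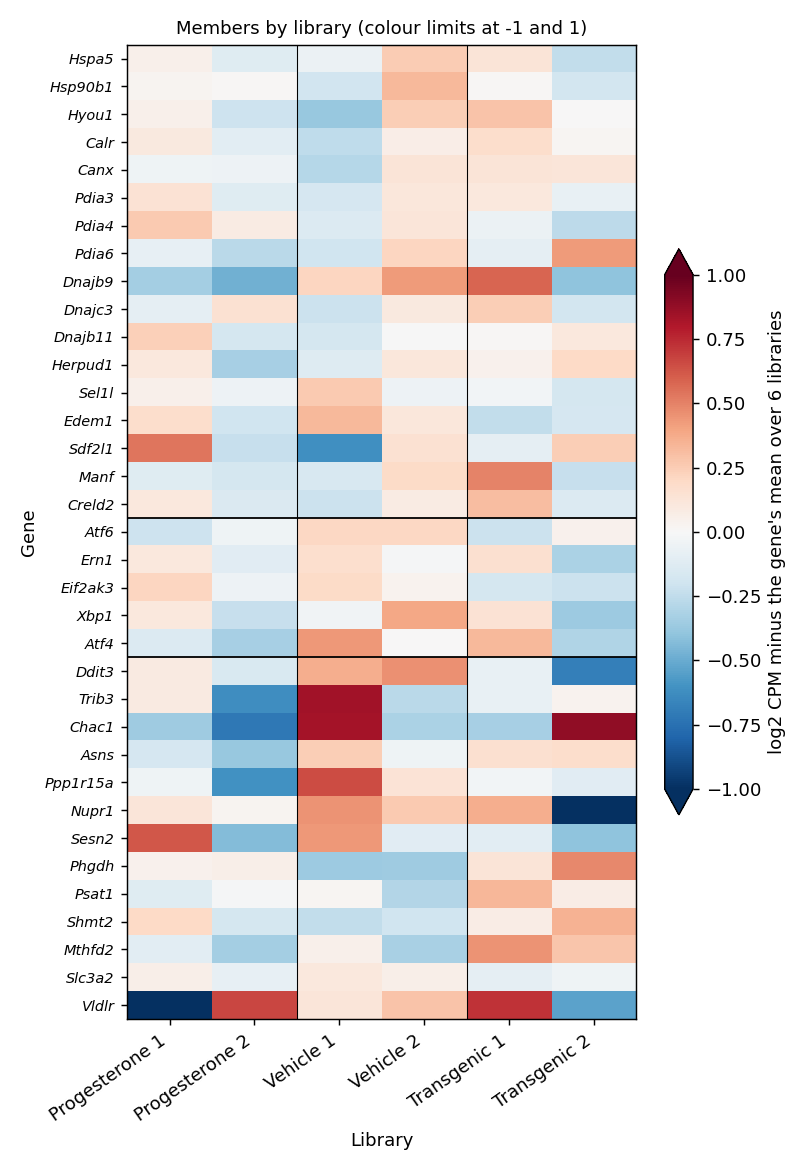
Level of each of the 35 genes (rows) in each library (columns), as log2 CPM minus the gene's mean over the 6 libraries. Lines separate the 17 ER genes (top), the 5 sensors and factors and the 13 ATF4-type genes (bottom); the ER genes are mostly blue in vehicle library 1 and mostly red in vehicle library 2.

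Most ER genes differed in the same direction between the libraries of a group, and the median difference was larger than that between groups. In vehicle library 2, 15 of 17 were higher than in vehicle library 1, with a median log2 difference of 0.31, against 0.01 over 13525 genes with counts in every library. The exceptions were Sel1l and Edem1, both of the degradation pathway. The degradation factor gene Herpud1 was no exception, at 38.1 CPM in vehicle library 1 and 45.1 CPM in vehicle library 2. In progesterone library 2, 16 of 17 were lower than in progesterone library 1, with a median of -0.18. In transgenic library 2, 12 of 17 were lower than in its mate, with a median of -0.18. Scaling keeps the signed median over all genes small, so sizes are also given without sign. The median absolute log2 difference was 0.31 for the ER genes and 0.21 over all genes in the vehicle tumours. It was 0.20 and 0.30 in the progesterone tumours, and 0.20 and 0.33 in the transgenic tumours. By that measure the ER genes moved more than all genes in the vehicle tumours only. Between groups, the median log2 fold change of the 17 was -0.13 in vehicle over transgenic tumours, -0.04 in progesterone over vehicle and -0.01 in progesterone over transgenic. The values between groups rest on 2 libraries per group, which vary less than single libraries, so the 2 kinds of difference are not on an equal footing. The differences between single libraries have no replicate check.

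The BiP gene is an example. Hspa5 (GRCm38 chr2:34771970-34777547) had 904 and 802 CPM in the progesterone tumours, 841 and 1040.4 CPM in the vehicle tumours and 955 and 738 CPM in the transgenic tumours. The highest library was vehicle 2, the lowest transgenic 2, and all 3 groups overlapped. Hsp90b1 had 1137 and 1128 CPM in the progesterone tumours, 976 and 1396 CPM in the vehicle tumours and 1128 and 984 CPM in the transgenic tumours. Hyou1, which encodes an ER nucleotide exchange factor, had 278 and 233 CPM in the progesterone tumours, 207 and 319 CPM in the vehicle tumours and 328 and 270.0 CPM in the transgenic tumours. For both genes vehicle library 1 was the lowest of the 6, and vehicle library 2 was the highest or second to transgenic library 1.

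The ATF4-type genes did not follow the ER genes within the vehicle group. Of the 13, 9 were lower in vehicle library 2 than in library 1, with a median log2 difference of -0.29, so that the library with the higher chaperones had the lower ATF4-type genes. Trib3, a pseudokinase gene that CHOP and ATF4 induce, had 21.9 and 10.2 CPM in these 2 libraries, and Atf4 itself 354 and 264 CPM. Between the progesterone libraries both lists had the same direction, with 10 of 13 ATF4-type genes lower in library 2 (median -0.24). Between the transgenic libraries 7 of 13 were lower in library 2 (median -0.08). The summed level of 9 fibroblast markers was 6769 CPM in vehicle library 1 and 11432 CPM in vehicle library 2. It was 4972 and 10592 CPM in progesterone libraries 1 and 2, and 7624 and 1979.8 CPM in transgenic libraries 1 and 2. None of the 9 was at 0 in all libraries. This sum moved with most ER genes in the vehicle and transgenic tumours and against them in the progesterone tumours. The macrophage sum was 1349 and 1659.9 CPM in the vehicle, 2629 and 2399 CPM in the progesterone and 1080.0 and 2419.9 CPM in the transgenic libraries. That sum and the epithelial sum moved with most ER genes in the vehicle and progesterone tumours and against them in the transgenic tumours. The part of these cells in the shifts was not tested.

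**Figure D2:**
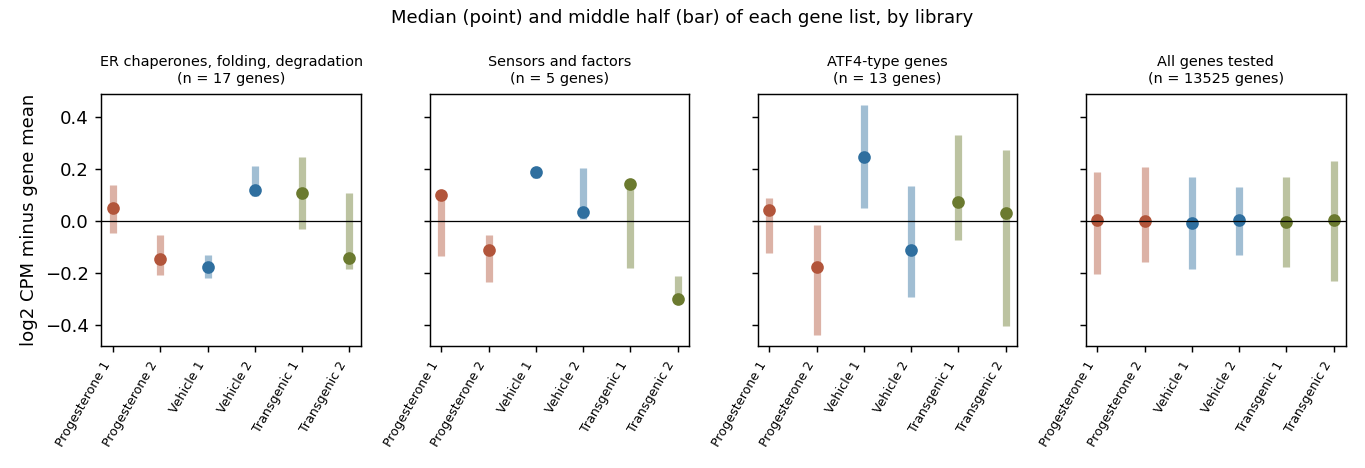
Median (point) and interquartile range (bar) of log2 CPM minus the gene's mean over the 6 libraries, for each gene list and library. The ER genes have medians of -0.18 and 0.12 in vehicle libraries 1 and 2, while the ATF4-type genes have 0.25 and -0.11; the medians of all genes lie closer to 0.

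The first comparison, vehicle against transgenic tumours, asked what differs in tumours of hosts without ovaries. No member of the 3 lists passed the test, and the split that was seen lay within the ATF4-type list. The serine and one-carbon enzyme genes Phgdh, Psat1, Shmt2 and Mthfd2 were lower in both vehicle libraries than in both transgenic libraries, and Ddit3 and Ppp1r15a were higher in both. This division of the list was made after the values were seen. By edgeR's quasi-likelihood test with Benjamini-Hochberg adjustment, 0 genes in all were called (0% of 13632). At an unadjusted p under 0.05 there were 2 higher and 3 lower members out of 35, where 2.68% of all genes were higher and 2.89% lower, 5.57% in all. DESeq2 called 66 genes (0.560% of the 11782 to which it gave an adjusted p), of which 1 was a member, and limma-voom called 0. An unadjusted p under 0.05 was found for 5 members by DESeq2 (7.26% of all genes) and 3 by limma-voom (5.13%).

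Serine synthesis starts with Phgdh (ENSMUSG00000053398, GRCm38 chr3:98313170-98339990). It had 129.8 and 130.1 CPM in the vehicle tumours, against 182 and 233 CPM in the transgenic tumours, a log2 fold change of -0.68 ± 0.17 SE. The vehicle libraries nearly coincided below both transgenic libraries. Its adjusted p was 0.810 by edgeR and 0.0464 by DESeq2, the only member that DESeq2 called, and the log2 fold change ran from -0.84 to -0.49 when each of the 6 libraries was left out in turn. Psat1, the second enzyme of that pathway, had 182 and 146 CPM in the vehicle tumours, against 225 and 188 CPM in the transgenic tumours (log2 fold change -0.33 ± 0.18 SE, as in the brackets that follow). Shmt2, the mitochondrial enzyme that splits serine to glycine and a one-carbon unit, had 157 and 161 CPM in the vehicle tumours, against 196 and 237 CPM in the transgenic tumours (-0.44 ± 0.19 SE). Mthfd2, which oxidizes that unit in mitochondria, had 86.5 and 66.8 CPM in the vehicle tumours, against 114 and 101 CPM in the transgenic tumours (-0.49 ± 0.18 SE). In none of the 4 did the groups overlap, and each adjusted p by edgeR was at least 0.810. Over all genes tested, 17.7% were lower in both vehicle libraries without overlap and 17.9% higher, 35.6% in all, and of the 35 members 5 were lower and 6 higher in that sense, so the count of members apart was near that of all genes.

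CHOP itself, Ddit3 (ENSMUSG00000025408, GRCm38 chr10:127290774-127296288), had 15.5 and 16.5 CPM in the vehicle tumours, against 11.4 and 7.50 CPM in the transgenic tumours, from 178 to 451 reads per library. The log2 fold change was 0.75 ± 0.30 SE (adjusted p = 0.858 by edgeR), and 0.48 to 1.09 with single libraries left out. Exons of Ddit3 overlap those of Mars on the other strand over 68 bases, as 7 members do with a gene of the table over at most 8.05% of their exons, and whether counting used the strand is not given in the sources used here. Ppp1r15a, which encodes GADD34, the phosphatase subunit that reverses eIF2 phosphorylation, had 56.4 and 39.5 CPM in the vehicle tumours, against 35.3 and 33.3 CPM in the transgenic tumours (0.49 ± 0.26 SE). Asparagine synthetase (Asns), a classical ATF4 target, had 117 and 95.7 CPM in the vehicle tumours, against 110.1 and 111 CPM in the transgenic tumours (-0.06 ± 0.16 SE), and these groups overlapped. The amino acid transporter chain gene Slc3a2 had 199 and 192 CPM in the vehicle tumours, against 173 and 179 CPM in the transgenic tumours, a small difference (0.15 ± 0.15 SE) without overlap. Nupr1, a stress-induced chromatin protein gene, had 47.6 and 41.8 CPM in the vehicle tumours, against 44.9 and 14.9 CPM in the transgenic tumours, with transgenic library 2 alone low. Trib3 had 21.9 and 10.2 CPM in the vehicle tumours, against 11.6 and 12.5 CPM in the transgenic tumours (0.41 ± 0.42 SE), and Chac1 had 4.22 and 1.91 CPM in the vehicle tumours, against 1.89 and 4.38 CPM in the transgenic tumours (-0.03 ± 0.60 SE), and the groups of both genes overlapped. Over the 13 ATF4-type genes the median log2 fold change was -0.02, with 6 higher and 7 lower, against -0.01 over all genes. It was -0.20 without vehicle library 1, 0.18 without vehicle library 2 and 0.13 without transgenic library 1, so that its sign changed with single libraries.

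The 5 sensors and factors were all higher on average in the vehicle group (median log2 fold change 0.27), and none passed the test. Atf6 had 144 and 144 CPM in the vehicle tumours, against 108 and 129 CPM in the transgenic tumours (0.28 ± 0.16 SE). Eif2ak3, the gene of PERK, had 56.4 and 50.6 CPM in the vehicle tumours, against 43.6 and 42.7 CPM in the transgenic tumours (0.31 ± 0.17 SE). These 2 genes separated the groups without overlap. Xbp1 had 145 and 194 CPM in the vehicle tumours, against 164 and 116 CPM in the transgenic tumours (0.27 ± 0.24 SE). Atf4 had 354 and 264 CPM in the vehicle tumours, against 329.7 and 214 CPM in the transgenic tumours (0.19 ± 0.25 SE), and Ern1 had 132 and 116 CPM in the vehicle tumours, against 131 and 94.2 CPM in the transgenic tumours (0.14 ± 0.20 SE). For these 3 genes the groups overlapped, and without transgenic library 2 Atf4 and Ern1 were lower in the vehicle tumours (-0.09 and -0.07). Without vehicle library 1, Atf4 had -0.04. The smallest adjusted p of the 5 was 0.891 by edgeR. Without transgenic library 2 the median of the 5 was 0.05, and without transgenic library 1 it was 0.40.

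Among the ER genes the median log2 fold change was -0.13, with 6 higher and 11 lower in the vehicle tumours and all 17 between -0.28 and 0.43. The largest difference was that of Edem1, which targets misfolded glycoproteins for degradation. It had 206 and 178 CPM in the vehicle tumours, against 139 and 146 CPM in the transgenic tumours (0.43 ± 0.18 SE, adjusted p = 0.871 by edgeR), with no overlap of the groups. Sel1l, of the same pathway, had 136 and 109.8 CPM in the vehicle tumours, against 112 and 101 CPM in the transgenic tumours (0.21 ± 0.16 SE). The lectin chaperone gene Canx had 610.1 and 811 CPM in the vehicle tumours, against 809 and 807 CPM in the transgenic tumours (-0.19 ± 0.19 SE), and its relative Calr had 562 and 704 CPM in the vehicle tumours, against 759 and 680.0 CPM in the transgenic tumours (-0.19 ± 0.19 SE). Hspa5 had a log2 fold change of 0.15 ± 0.20 SE. The groups of these 4 genes overlapped. Dnajb11, a BiP co-chaperone gene, was lower in both vehicle libraries by a narrow margin, at 95.3 and 108 CPM in the vehicle tumours, against 108 and 116 CPM in the transgenic tumours (-0.15 ± 0.18 SE). The list's median was 0.05 without vehicle library 1 and 0.08 without transgenic library 1, so its sign rests on those libraries.

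Of other genes of the pathway, 32 ER genes and 41 genes of the integrated stress response passed the filter, of 33 and 43 in the table. At an unadjusted p under 0.05, 1 of the 32 and 2 of the 41 were higher and 1 of the 41 was lower in the vehicle tumours, and edgeR called none of them. In both directions these were 3.1% of the 32 and 7.3% of the 41, against 5.57% of all genes tested. The ER oxidase Ero1l, which reoxidizes disulfide isomerases and which hypoxia also induces, had 643 and 449.5 CPM in the vehicle tumours, against 278 and 184 CPM in the transgenic tumours (1.24 ± 0.27 SE, adjusted p = 0.810 by edgeR and 0.00649 by DESeq2). Atf3, a factor downstream of ATF4, had 54.0 and 35.9 CPM in the vehicle tumours, against 20.2 and 28.1 CPM in the transgenic tumours (0.90 ± 0.27 SE). Ddit4, an inhibitor of mTOR signalling that both ATF4 and hypoxia induce, had 203 and 140.2 CPM in the vehicle tumours, against 120.4 and 67.3 CPM in the transgenic tumours (0.87 ± 0.30 SE), and the ATF4 relative Atf5 had 52.7 and 49.6 CPM in the vehicle tumours, against 60.7 and 33.5 CPM in the transgenic tumours (0.12 ± 0.29 SE). The summed level of 9 hypoxia genes was 5046 and 4803 CPM in the vehicle tumours, against 3975 and 3128 CPM in the transgenic tumours, and all 9 had positive log2 fold changes. None was at 0. Of markers past the filter, 8 of 9 endothelial, 7 of 7 T cell, 4 of 4 epithelial and 7 of 9 macrophage genes had negative log2 fold changes. So did 4 of 4 B and plasma cell genes, while 5 fibroblast genes were positive and 4 negative. The T cell markers in the table summed to 2.02 and 1.59 CPM in the vehicle tumours, against 3.11 and 13.2 CPM in the transgenic tumours. The endothelial markers summed to 251 and 248.7 CPM in the vehicle tumours, against 247 and 299 CPM in the transgenic tumours. The epithelial markers summed to 395 and 469.9 CPM in the vehicle tumours, against 267 and 766 CPM in the transgenic tumours, and the macrophage markers to 1349 and 1659.9 CPM in the vehicle tumours, against 1080.0 and 2419.9 CPM in the transgenic tumours. The part of hypoxia genes and of these cells in the stress gene differences was not tested.

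**Figure D3:**
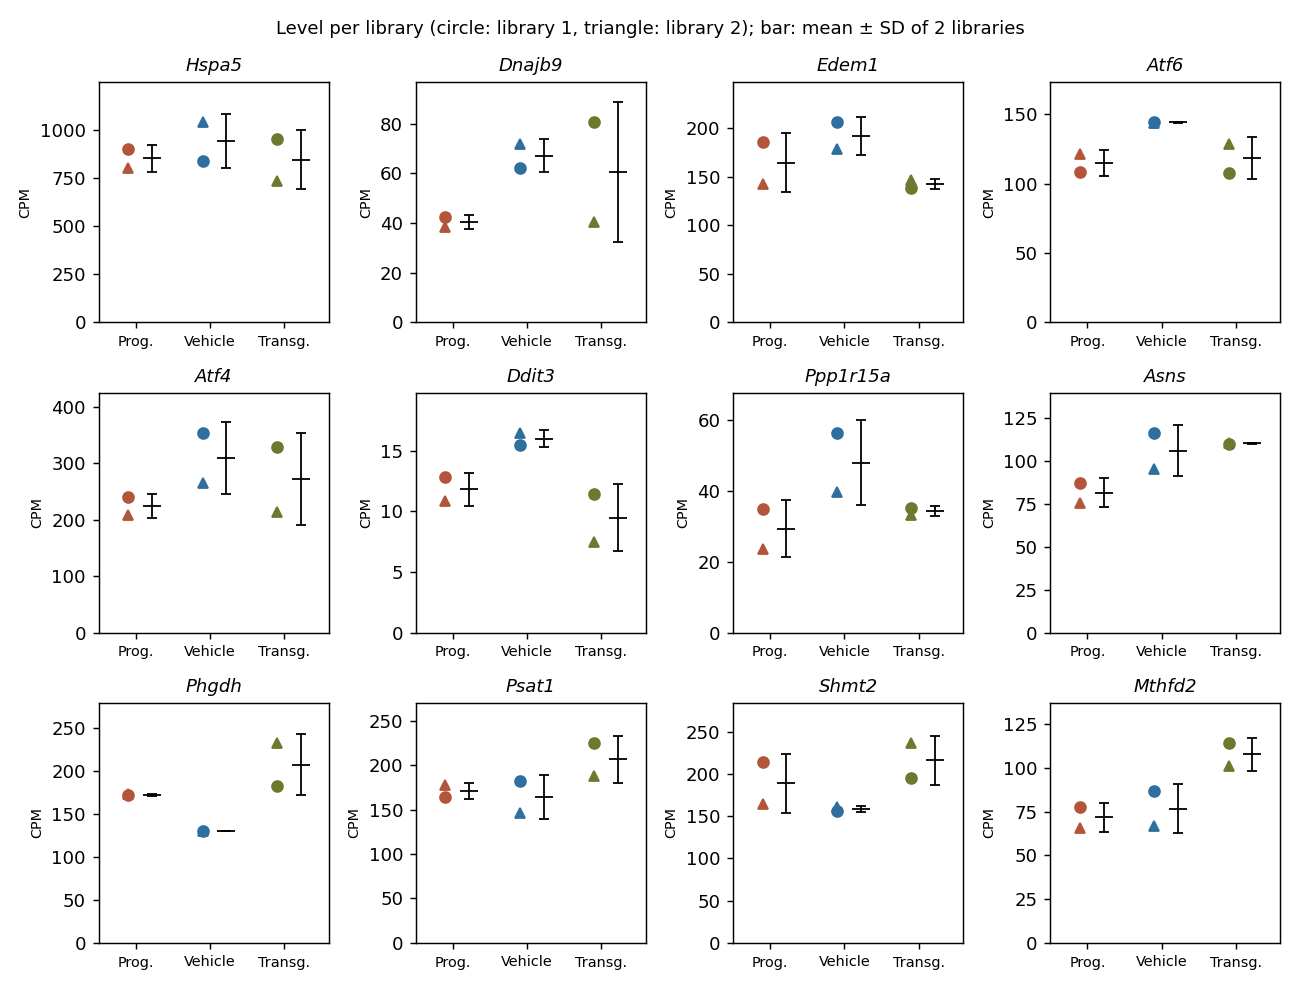
CPM of 12 genes in each library (circle, library 1; triangle, library 2), with the mean and SD of the 2 libraries of a group beside them. Phgdh, Shmt2 and Ddit3 show the 2 vehicle libraries close together and apart from both transgenic libraries, whereas Hspa5 and Atf4 show groups that overlap.

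The second comparison, progesterone against vehicle tumours, asked what progesterone supplementation alters in ovariectomized hosts. Again no member passed the test, and 0 genes in all did by edgeR (0%). The ATF4-type genes Ppp1r15a, Asns and Ddit3 and the sensor gene Atf6 were lower in both progesterone libraries, Phgdh was higher in both, and the median of the ER genes was near 0. At an unadjusted p under 0.05 there was 1 higher and there were 2 lower members, where 2.77% of all genes were higher and 2.52% lower, 5.29% in all. DESeq2 called 75 genes (0.572% of the 13103 to which it gave an adjusted p) and limma-voom 0, none of them members. An unadjusted p under 0.05 was found for 4 members by DESeq2 (6.54% of all genes) and 2 by limma-voom (4.69%). Without overlap of the groups, 8 members were lower and 2 higher in the progesterone tumours, where 17.8% of all genes were lower and 18.5% higher, 36.2% in all. Any 2 of the 3 comparisons share the libraries of 1 group, so their values for a gene are not separate evidence.

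Ppp1r15a, the GADD34 gene, had 34.97 and 23.6 CPM in the progesterone tumours, against 56.4 and 39.5 CPM in the vehicle tumours, a log2 fold change of -0.71 ± 0.26 SE (adjusted p = 0.939 by edgeR). Both progesterone libraries lay below both vehicle libraries, and the value ran from -1.03 to -0.44 with single libraries left out. Phgdh had 172 and 173 CPM in the progesterone tumours, against 129.8 and 130.1 CPM in the vehicle tumours (0.41 ± 0.17 SE), with libraries of each group nearly equal and 0.40 to 0.41 with single libraries left out. Asns had 87.5 and 75.7 CPM in the progesterone tumours, against 117 and 95.7 CPM in the vehicle tumours (-0.38 ± 0.16 SE). Ddit3 had 12.8 and 10.8 CPM in the progesterone tumours, against 15.5 and 16.5 CPM in the vehicle tumours (-0.43 ± 0.30 SE). Chac1, which degrades glutathione and is among the most inducible ATF4 targets, was rare, with 35 to 123 reads per library and 1.85 and 1.45 CPM in the progesterone tumours, against 4.22 and 1.91 CPM in the vehicle tumours (-0.90 ± 0.61 SE). Trib3 had 13.0 and 7.94 CPM in the progesterone tumours, against 21.9 and 10.2 CPM in the vehicle tumours (-0.62 ± 0.42 SE), and these groups overlapped. Its value ran from -1.06 to 0.04 with single libraries left out, so that its sign changed. Nupr1 was lower in both progesterone libraries, at 38.0 and 35.6 CPM in the progesterone tumours, against 47.6 and 41.8 CPM in the vehicle tumours (-0.28 ± 0.45 SE), and Shmt2 higher in both (0.25 ± 0.19 SE). The median of the 13 ATF4-type genes was -0.20, with 3 higher and 10 lower, against 0.01 over all genes. It was -0.07 without vehicle library 1 and -0.33 without progesterone library 1.

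All 5 sensors and factors had negative log2 fold changes (median -0.24). Atf6 had 108 and 121 CPM in the progesterone tumours, against 144 and 144 CPM in the vehicle tumours (-0.33 ± 0.16 SE), and Atf4 239 and 209 CPM in the progesterone tumours, against 354 and 264 CPM in the vehicle tumours (-0.46 ± 0.25 SE). Both separated the groups, with adjusted p = 0.944 and 0.961 by edgeR. The progesterone tumours had 159.7 and 127 CPM of Xbp1 (-0.24 ± 0.24 SE), 126 and 109 CPM of Ern1 (-0.08 ± 0.20 SE) and 57.3 and 47.7 CPM of Eif2ak3 (-0.03 ± 0.17 SE), and these groups overlapped. Ern1 and Eif2ak3 were positive without progesterone library 2 (0.03 and 0.10) and without vehicle library 1 (0.01 and 0.05). The list's median was -0.08 without progesterone library 2.

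Of the ER genes, 8 were higher and 9 lower (median -0.04), and the median was 0.02 without progesterone library 2 and 0.20 without vehicle library 2. Dnajb9, a co-chaperone of BiP and a target of spliced XBP1, stood farthest out at 42.4 and 38.5 CPM in the progesterone tumours, against 62.4 and 72.0 CPM in the vehicle tumours (-0.73 ± 0.31 SE, adjusted p = 0.939 by edgeR). It was the only ER gene whose groups did not overlap. Edem1 had 186 and 143 CPM in the progesterone tumours, against 206 and 178 CPM in the vehicle tumours (-0.22 ± 0.18 SE), and the disulfide isomerase gene Pdia4 had 305 and 269 CPM in the progesterone tumours, against 231 and 276 CPM in the vehicle tumours (0.18 ± 0.18 SE). Hspa5 had a log2 fold change of -0.14 ± 0.20 SE. Sdf2l1, part of an ER chaperone complex, had 50.3 and 29.6 CPM in the progesterone tumours, against 22.7 and 38.5 CPM in the vehicle tumours (0.39 ± 0.34 SE), and -0.05 without progesterone library 1.

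Among the other pathway genes, 1 of 32 ER genes was lower, and 1 of 41 stress response genes was higher and 3 were lower at an unadjusted p under 0.05. In both directions these were 3.1% of the 32 and 9.8% of the 41, against 5.29% of all genes tested. Atf3 had 15.7 and 14.8 CPM in the progesterone tumours, against 54.0 and 35.9 CPM in the vehicle tumours (-1.56 ± 0.28 SE, adjusted p = 0.817 by edgeR and 0.000357 by DESeq2). Ero1l had 209 and 245 CPM in the progesterone tumours, against 643 and 449.5 CPM in the vehicle tumours (-1.27 ± 0.27 SE, adjusted p = 0.826 by edgeR and 0.00280 by DESeq2). The stress and hypoxia gene Ndrg1 had 242 and 257 CPM in the progesterone tumours, against 517 and 487 CPM in the vehicle tumours (-1.01 ± 0.31 SE). Ddit4 had 119 and 134 CPM in the progesterone tumours, against 203 and 140.2 CPM in the vehicle tumours (-0.44 ± 0.30 SE), and Atf5 had 47.7 and 38.1 CPM in the progesterone tumours, against 52.7 and 49.6 CPM in the vehicle tumours (-0.25 ± 0.29 SE). The 9 hypoxia genes summed to 3760.1 and 3021 CPM in the progesterone tumours, against 5046 and 4803 CPM in the vehicle tumours, and all 9 had negative log2 fold changes. The 9 macrophage markers summed to 2629 and 2399 CPM in the progesterone tumours against 1349 and 1659.9 CPM in the vehicle tumours, with 9 of 9 positive. The 9 B and plasma cell markers, of which plasma cells depend on Xbp1, summed to 7.03 and 19.3 CPM in the progesterone tumours against 2.37 and 4.88 CPM in the vehicle tumours, and 3 of the 4 that passed the filter were positive. The T cell markers summed to 6.72 and 5.59 CPM in the progesterone tumours against 2.02 and 1.59 CPM in the vehicle tumours, with 7 of 7 positive. Of the fibroblast genes 4 were positive and 5 negative, and of the endothelial genes 3 were positive and 6 negative. The epithelial genes past the filter had 3 positive and 1 negative. None of these markers was at 0 in all libraries. The part of these cells and of hypoxia genes in the stress gene values was not tested.

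The third comparison set progesterone tumours against transgenic tumours, which differ by ovariectomy and by the supplement. No member was called by edgeR, limma-voom or DESeq2, and in all 0, 0 and 47 genes were (0% by edgeR). The 47 were 0.366% of the 12839 genes to which DESeq2 gave an adjusted p. At an unadjusted p under 0.05, 2 members were lower and 0 higher by edgeR, where 2.54% of all genes were lower and 2.73% higher, 5.27% in all. By DESeq2 and by limma-voom there were 2 members each at that level, where 6.79% and 4.86% of all genes were. Of the members, 6 were lower and 3 higher without overlap of the groups, where 14.5% of all genes were lower and 14.5% higher, 29.0% in all.

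Both members at that level were amino acid and one-carbon genes. Mthfd2 had 77.6 and 65.9 CPM in the progesterone tumours, against 114 and 101 CPM in the transgenic tumours (-0.59 ± 0.18 SE, adjusted p = 0.914 by edgeR, and -0.71 to -0.47 with single libraries left out). Asns had 87.5 and 75.7 CPM in the progesterone tumours, against 110.1 and 111 CPM in the transgenic tumours (-0.44 ± 0.16 SE, adjusted p = 0.914 by edgeR). Neither gene's groups overlapped, and the transgenic libraries of Asns were nearly equal. Phgdh had a log2 fold change of -0.27 ± 0.17 SE. Psat1 had 164 and 177 CPM in the progesterone tumours, against 225 and 188 CPM in the transgenic tumours (-0.27 ± 0.18 SE), and both were lower in each progesterone library than in each transgenic library. Ddit3 had a log2 fold change of 0.32 ± 0.30 SE with overlapping groups. The median of the ATF4-type genes was -0.23, with 4 higher and 9 lower, against 0.01 over all genes. It was -0.01 without progesterone library 2.

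With all 6 libraries, the medians of the ER genes and of the sensors were nearest to 0 here. The ER genes had a median of -0.01 with 6 higher and 11 lower, and the median ran from -0.21 without progesterone library 1 to 0.08 without transgenic library 1. It was -0.14 without transgenic library 2 and 0.01 without progesterone library 2. Hspa5 had a log2 fold change of 0.01 ± 0.20 SE. Pdia4 had 305 and 269 CPM in the progesterone tumours, against 243 and 211 CPM in the transgenic tumours (0.33 ± 0.18 SE), higher in both progesterone libraries. Canx was lower in both, at 719 and 715 CPM in the progesterone tumours, against 809 and 807 CPM in the transgenic tumours (-0.17 ± 0.19 SE), and Hsp90b1 was higher in both by a narrow margin (0.10 ± 0.21 SE). Dnajb9 had 42.4 and 38.5 CPM in the progesterone tumours, against 80.6 and 40.6 CPM in the transgenic tumours (-0.58 ± 0.31 SE), a value that was -0.01 without transgenic library 1. Pdia6 had 599 and 528 CPM in the progesterone tumours, against 597 and 855 CPM in the transgenic tumours (-0.37 ± 0.24 SE). Manf, which encodes a secreted factor that ER stress induces, had 166 and 159 CPM in the progesterone tumours, against 253 and 154 CPM in the transgenic tumours (-0.33 ± 0.25 SE). Both pairs of groups overlapped. The sensors and factors had a median of 0.03, with Eif2ak3 at 0.28 ± 0.17 SE and higher in both progesterone libraries, Atf4 at -0.28 ± 0.25 SE, Ern1 at 0.06 ± 0.20 SE, Atf6 at -0.04 ± 0.16 SE and Xbp1 at 0.03 ± 0.24 SE. That median was -0.16 without transgenic library 2, -0.06 without progesterone library 1, 0.17 without progesterone library 2 and 0.30 without transgenic library 1.

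Of the other pathway genes, 1 of 32 ER genes and 4 of 41 stress response genes were lower at an unadjusted p under 0.05, and 0 higher. The lower genes were 3.1% of the 32 and 9.8% of the 41. Over all genes tested 2.54% were lower and 2.73% higher at that level. The arginine and lysine transporter gene Slc7a1 had 83.3 and 87.3 CPM in the progesterone tumours, against 131 and 144 CPM in the transgenic tumours (-0.69 ± 0.17 SE, adjusted p = 0.914 by edgeR). Eif2s1, which encodes the eIF2 subunit that stress kinases phosphorylate, had 203 and 205 CPM in the progesterone tumours, against 287 and 346 CPM in the transgenic tumours (-0.63 ± 0.16 SE, adjusted p = 0.914 by edgeR and 0.0431 by DESeq2). Asparaginyl-tRNA synthetase (Nars) had 232 and 217 CPM in the progesterone tumours, against 286 and 477 CPM in the transgenic tumours (-0.77 ± 0.25 SE), and -0.35 without transgenic library 2. Ero1l, Ddit4 and Atf5 had log2 fold changes of -0.03 ± 0.26 SE, 0.43 ± 0.30 SE and -0.14 ± 0.29 SE. The hypoxia sum was 3760.1 and 3021 CPM in the progesterone tumours, against 3975 and 3128 CPM in the transgenic tumours, with 4 of 9 log2 fold changes positive and 5 negative. Of the cell markers, 8 of 9 macrophage and 8 of 9 fibroblast genes were positive and 8 of 9 endothelial genes negative. The T cell genes past the filter had 2 positive and 5 negative. The epithelial genes had 2 positive and 2 negative, and the B and plasma cell genes 3 positive and 1 negative. The macrophage markers summed to 2629 and 2399 CPM in the progesterone tumours, against 1080.0 and 2419.9 CPM in the transgenic tumours. The fibroblast markers summed to 4972 and 10592 CPM in the progesterone tumours, against 7624 and 1979.8 CPM in the transgenic tumours, and the endothelial markers to 111 and 258 CPM in the progesterone tumours, against 247 and 299 CPM in the transgenic tumours. Their part in the stress gene values was not tested.

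**Figure D4:**
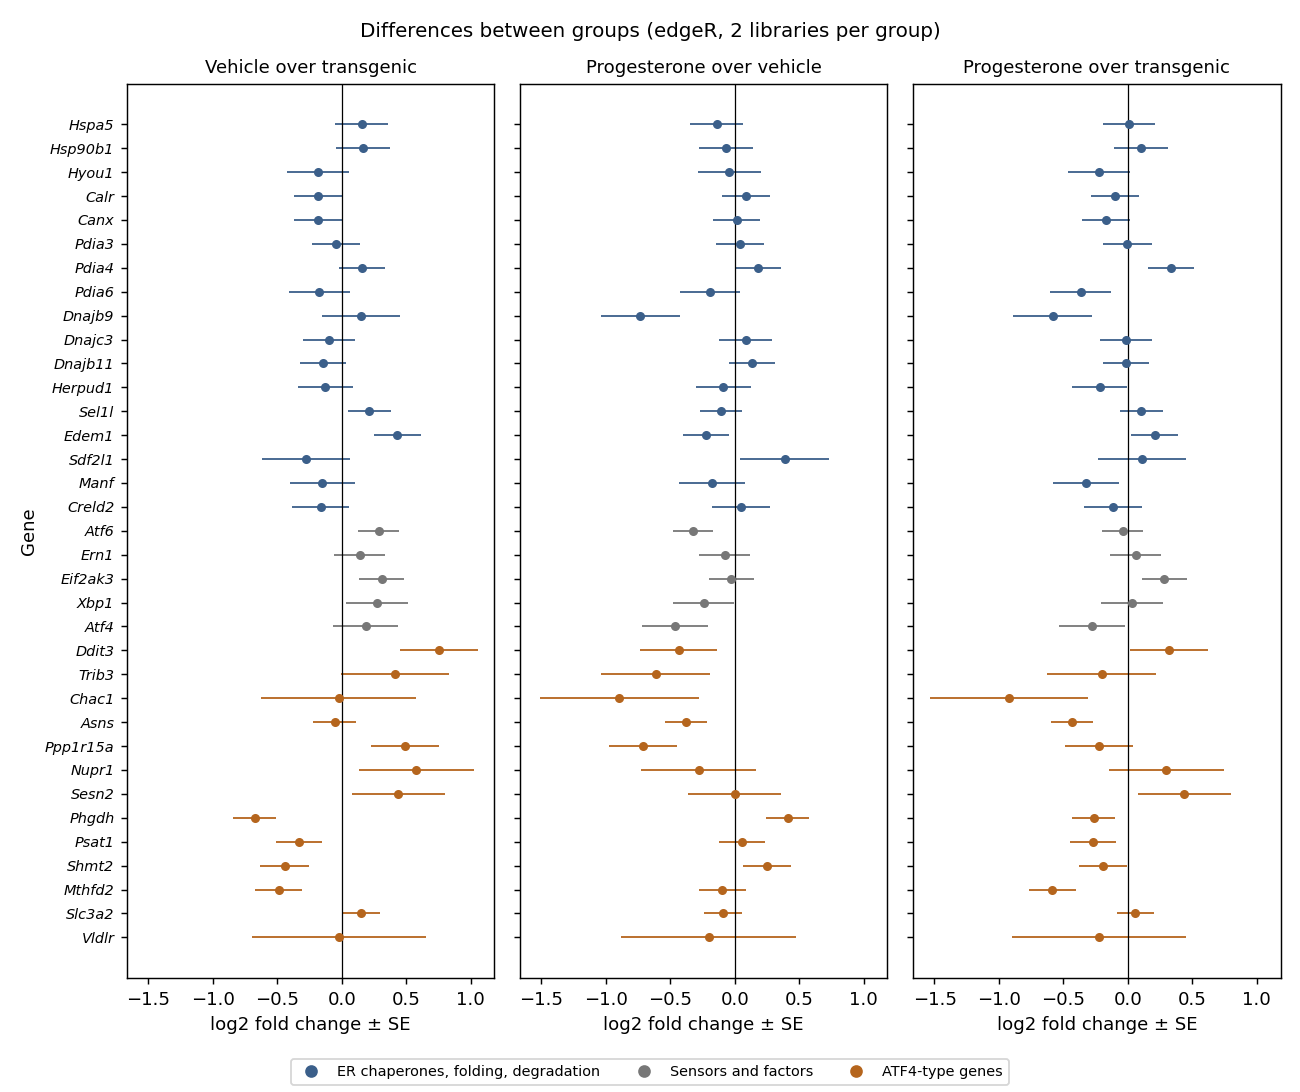
Log2 fold change with its SE (derived from edgeR's F statistic) for each of the 35 genes in the 3 comparisons, coloured by role. In vehicle over transgenic the points of Phgdh, Psat1, Shmt2 and Mthfd2 lie left of 0 and those of Ddit3 and Ppp1r15a right of it; none of the 35 passed the test in any comparison.

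For Dnajc3, which encodes an inhibitor of PERK and BiP co-chaperone, the 6 libraries ran from 97.4 to 134 CPM. Over all 6 libraries Dnajb11 had 95.2 to 127 CPM, both ends in progesterone tumours, and Herpud1 33.1 to 48.0 CPM. Creld2, an ER stress-inducible disulfide isomerase-like gene, had 37.6 to 54.2 CPM. Sesn2, a stress-induced inhibitor of mTOR signalling, had 63.6 and 30.5 CPM in the progesterone tumours, 55.7 and 38.2 CPM in the vehicle tumours and 38.3 and 31.1 CPM in the transgenic tumours. Its progesterone libraries lay at both ends of the range. Vldlr, with 54 to 223 reads per library, had 2.09 and 7.94 CPM in the progesterone tumours, 5.45 and 6.10 CPM in the vehicle tumours and 8.26 and 3.46 CPM in the transgenic tumours, and its progesterone libraries differed by more than the means of any 2 groups did.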

How the data were processed

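The 6 libraries of tumour RNA were made with a directional mRNA library kit, per the labels' protocols. The authors deposited raw read counts per gene, with no normalization. HISAT2, HTSeq, DESeq and GRCm38.p6 are named in the submitters' processing notes. Their versions, and whether reads were counted by strand, are not stated in any source read here.

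Libraries were grouped by the labels. Genes past edgeR's filterByExpr were scaled by TMM and fitted with edgeR 4.0.16 (quasi-likelihood test, 1 mean per group, all 6 libraries, 3 residual degrees of freedom, R 4.3.3). Calls used an adjusted p under 0.05 (Benjamini-Hochberg over all genes tested). Each SE was derived as the absolute log2 fold change over the square root of the test's F statistic, since edgeR's test gives no SE. DESeq2 1.42.0, limma 3.58.1 (voom), other scalings and omitted libraries were alternatives. CPM per kilobase used GENCODE exon lengths, and motifs were sought on both strands of RefSeq promoter windows (GRCm38.p6). With 2 libraries per group, precision is limited by their spread, not by depth. Members and gene lists were chosen with earlier results of these data known. Library values are given for Hspa5, Asns, Ddit3 and the sensors and factors, and for the 4 members of each list with the smallest p in each comparison. For the other pathway genes they are given for the 3 with the smallest p in each comparison, and for Ero1l, Ddit4 and Atf5. Further members are named for their role or because their groups did not overlap.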

Additional observations from a re-analysis of the deposited data

How the results depend on the processing

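Without a filter on low counts, edgeR called 12 genes in vehicle over transgenic tumours, 92 in progesterone over vehicle and 28 in progesterone over transgenic, and DESeq2 called 66, 75 and 47, against 0, 0 and 0 as reported. Members called stayed at 0, except 1 in vehicle over transgenic by DESeq2. Members at an unadjusted p under 0.05 in that comparison were 3 instead of 5 both by limma-voom and with a replicate block. With the block they were 2 instead of 3 in progesterone over vehicle, and no gene was called in any comparison. The labels do not say that a library number marks a shared animal or day. Across genes, the differences of library 2 minus library 1 correlated at -0.125 (progesterone and vehicle), -0.174 (progesterone and transgenic) and 0.0804 (vehicle and transgenic). Each group gives only 1 such difference, so these values cannot decide whether same-numbered libraries share more than a label. When each library was left out in turn, with the lone library assumed to vary like the other groups, members at that level numbered 1 to 5 in vehicle over transgenic, 0 to 3 in progesterone over vehicle and 1 to 3 in progesterone over transgenic. In vehicle over transgenic they numbered 2 without vehicle library 1, 1 without vehicle library 2 and 3 without transgenic library 2. In progesterone over vehicle they numbered 0 without progesterone library 2, 0 without vehicle library 1 and 2 without progesterone library 1 or vehicle library 2. In progesterone over transgenic they numbered 1 without progesterone library 2 and 3 without either transgenic library. The sensors' median log2 fold change ran from 0.046 to 0.40, from -0.25 to -0.083 and from -0.16 to 0.30 in these comparisons, and that of the ER genes in progesterone over vehicle from -0.12 to 0.20. The median of the ATF4-type genes ran from -0.20 to 0.18, from -0.33 to -0.0714 and from -0.26 to -0.0145. Over all 35 members and 3 comparisons, 56 of 105 log2 fold changes changed sign when some library was left out. Of 45 log2 fold changes recomputed under every alternative (those of the members with the smallest p and of Hspa5, Asns, Ddit3, the sensors and the factors), 30 kept their sign under all 12. The other 15 changed sign only when a library was left out, at -0.41 to 0.0101 for Canx, -0.0894 to 0.53 for Atf4, -0.0176 to 0.35 for Hspa5, -0.20 to 0.0791 for Asns and -0.0747 to 0.40 for Ern1 in vehicle over transgenic, -0.0481 to 0.81 for Sdf2l1, -0.20 to 0.0272 for Ern1, -0.17 to 0.10 for Eif2ak3 and -0.29 to 0.0177 for Hspa5 in progesterone over vehicle, and -0.16 to 0.21 for Hspa5, -0.17 to 0.0925 for Atf6, -0.16 to 0.32 for Ern1, -0.20 to 0.30 for Xbp1, -0.64 to 0.0774 for Manf and -0.56 to 0.0656 for Atf4 in progesterone over transgenic. The cause was not tested.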
